A study of Arabidopsis thaliana with 27 samples.

Results

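The SAUR (Small Auxin Up RNA) genes described here are the 16 protein-coding genes, of 27444 on the 5 nuclear chromosomes of Arabidopsis thaliana, whose symbol in the TAIR10.1 gene table starts with SAUR. They are SAUR9, SAUR15, SAUR19, SAUR20, SAUR21, SAUR22, SAUR23, SAUR24, SAUR26, SAUR27, SAUR28, SAUR29, SAUR36, SAUR63, SAUR68 and SAUR75. For 64 further genes the table gives a SAUR name only as a synonym, so the 16 are a fraction of the family of 80, and the 64 are set beside them where they differ. The name SAUR21 stands in the table as the symbol of AT5G01830, whose body of 2865 bp is longer than those of the other 15 (587 to 1177 bp), and also as a synonym of AT5G18030, which lies between SAUR20 and SAUR22. AT5G01830 was kept because the symbol chose it, and it is named by its locus below. Whether it encodes a SAUR protein was not checked. SAUR68 here is AT1G29510, since AT1G29490 carries the same name as a synonym.

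Auxin binds receptors of the TIR1/AFB family, which leads to breakdown of Aux/IAA repressors and frees ARF transcription factors to activate early response genes, many SAUR genes among them. SAUR proteins are small and short-lived. Several bind and inhibit PP2C.D phosphatases, which otherwise dephosphorylate the plasma-membrane proton pumps AHA1 and AHA2, and the wall acidification that follows lets cells expand. Many SAUR genes are short and stand in tandem arrays of close copies.

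The study mapped 2 chromatin regulators and 1 histone mark in 14-day-old seedlings by chromatin immunoprecipitation and sequencing. REF6 removes methyl groups from lysine 27 of histone H3 through its Jumonji domain, BRM (BRAHMA) is the ATPase of a SWI/SNF chromatin remodeller, and H3K27me3 is the trimethylated lysine 27 that Polycomb proteins deposit on silent genes. Each of 17 libraries is represented by 1 peak list. The 10 input samples were not analysed here.

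REF6-GFP was mapped with an antibody against GFP in the brm mutant (2 libraries) and in a line whose label names no mutant (2 libraries), and BRM-GFP in the ref6 mutant (2 libraries) and in a line whose label names no mutant (1 library). For these libraries "WT" below means only that no mutant is named. Whether those lines also carry a mutation of the tagged gene is not stated. The allele is given for 1 of the ref6 libraries, ref6-1, with the transgene as BRM-GFP under the BRM promoter, and not for the other GFP lines. A further library each of REF6-GFP and BRM-GFP, called the first lists here, has a label that names no genetic background. H3K27me3 was mapped in ref6-1, brm-1, the brm-1 ref6-1 double mutant and wild type (WT), with 2 libraries each, and those mutants are also written ref6, brm and brm ref6. The material was whole seedlings throughout, so a site seen in a few cell types and a weak site in all of them cannot be told apart. Whether the 2 libraries of a group came from separate plantings is not stated, and their spread may be technical.

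The lists differed in length, and this sets how many genes each can reach. The first lists held 5413 peaks for REF6-GFP and 12230 for BRM-GFP, and the 7 later GFP lists held 1466 to 4006. H3K27me3 lists held 5582 to 13079 peaks, and the libraries of ref6 stood apart from each other, with 11925 peaks of median width 289 bp in replicate 1 and 5582 of median width 1575 bp in replicate 2. The lists give no read depth, so a peak missing from a list does not show that the protein or mark was absent. The score quoted for a peak is the authors', −10 times the base-10 logarithm of its p-value, and every listed peak has at least 50. Scores are given within a list, and no difference in score between lists was tested.

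REF6-GFP peaks lay near most of the 16 genes, and BRM-GFP peaks near fewer. In the first REF6-GFP list 11 of 16 genes had a peak on the gene body or within 1000 bp of it, a share of 68.8%, against 30.1% of all protein-coding genes and 20.2% of those with a body of at most 1000 bp, the size of 14 of the 16. In the first BRM-GFP list 5 of 16 had one (31.2%), against 44.1% of all protein-coding genes and 26.5% of those with a body of at most 1000 bp. The REF6 share stood above both backgrounds, while the BRM share lay between them. The REF6 count moved with the setting, and the backgrounds moved with it. It was 4 of 16 (25.0%) with all GFP lists at the length of the shortest, against 9.44% of all and 6.09% of short genes. On the gene body alone it was 6 (37.5%), against 22.7% and 11.8%, and with scores of at least 100 it was 7 (43.8%), against 23.5% and 15.8%. Without AT5G01830 the REF6 count in the main setting was 10 of the other 15 genes. The 11 genes were served by 12 peaks, some of them shared between neighbours, so the genes are not independent and no test was made on the share.

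Both first lists had a peak at 4 of the 16, SAUR15, SAUR20, SAUR29 and AT5G01830, against a background of 16.9%. REF6-GFP alone was listed at 7, SAUR19, SAUR22, SAUR23, SAUR24, SAUR27, SAUR28 and SAUR68, against 13.2%. BRM-GFP alone was listed at SAUR36, which takes part in leaf senescence, 1 of 16 against 27.2%. The remaining 4, SAUR9, SAUR26, SAUR63 and SAUR75, were in neither, against 42.7%, and they had no GFP peak within 1000 bp in the later lists either.

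**Figure D1:**
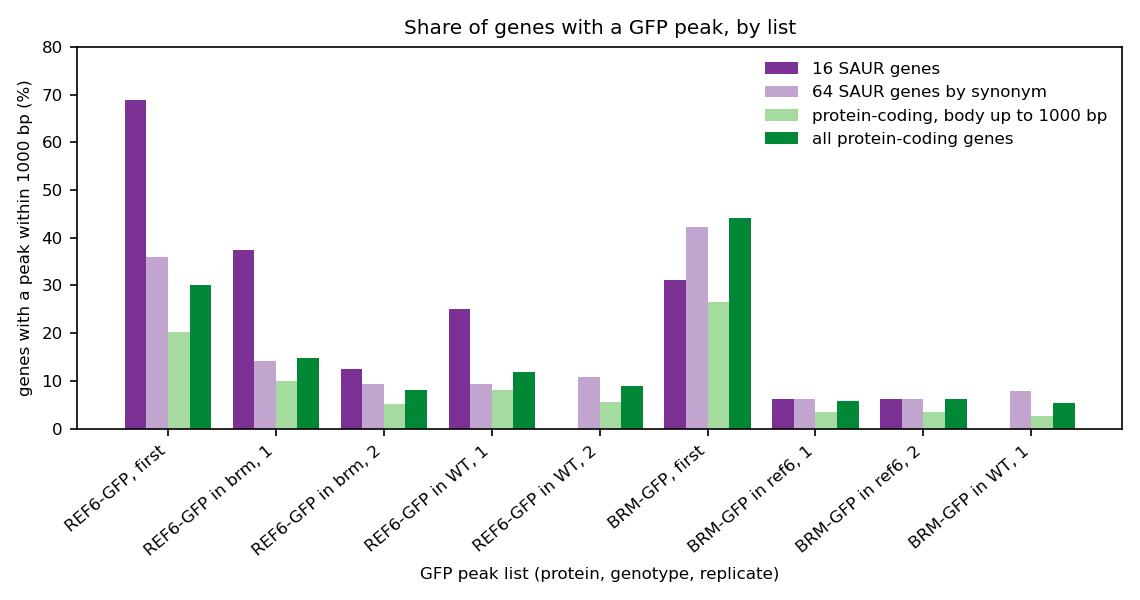
Share of genes (%) with a GFP peak within 1000 bp, for each of the 9 GFP lists; the bars show the 16 SAUR genes, the SAUR genes by synonym, the protein-coding genes with a body of at most 1000 bp and all protein-coding genes. In the first REF6-GFP list the 16 stand at 68.8% against 30.1% of all protein-coding genes, and in the first BRM-GFP list at 31.2% against 44.1%.

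SAUR19 to SAUR24, close copies whose products promote cell expansion, form a tandem array on chromosome 5. SAUR19, SAUR20, SAUR22, SAUR23 and SAUR24 span 21.5 kb with 5 other protein-coding genes among them, and all 5 had a REF6-GFP peak in the first list, through 4 different best peaks. The placing of reads that match several copies is not given in the sources used here. The split of signal between close copies is uncertain for that reason.

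At SAUR20 the highest peak of the array, with an authors' score of 654.91, stood 87 bp from the gene body at chr5:5964761-5966096 (TAIR10). A weaker peak with a score of 94.37 lay on the body itself. REF6-GFP was listed at the same upstream site in both brm lists, with scores of 278.67 in replicate 1 and 58.74 in replicate 2, and in WT replicate 1 with 52.0, but not in WT replicate 2. SAUR20 was thus the gene of the 16 with a peak in 4 of the 5 REF6-GFP lists, and the only list without one was a WT list.

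Beside SAUR19 the peak lay 380 bp from the body, at chr5:5961138-5962393 with an authors' score of 638.07, and it overlapped the body of the next gene, VDD, so the site cannot be assigned to SAUR19 alone. The site was listed with a score of 336.74 in brm replicate 1 and 301.38 in WT replicate 1. WT replicate 2 had a peak with a score of 55.78 there too, but 1057 bp from SAUR19 and so just outside the 1000 bp. The brm and WT libraries overlapped at this gene, since replicate 1 of both genotypes listed the site within 1000 bp and replicate 2 of neither did.

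The peak next to SAUR24 lay 563 bp away at chr5:5984871-5986241 with an authors' score of 473.24, on the body of the neighbouring AT5G18090. Its later peaks had scores of 303.85 in brm replicate 1 and 207.26 in WT replicate 1, and neither replicate 2 listed one. SAUR22 and SAUR23 shared 1 weak peak at chr5:5975395-5976402 with a score of 87.15, which overlapped SAUR23 and lay 308 bp from SAUR22, and no later list had a peak at either. That peak was in place 4283 of 5413 by score. Between SAUR20 and SAUR22, a peak at chr5:5967444-5968879 with a score of 303.7, in place 2265, lay on AT5G18030 and 659 bp from SAUR20. REF6-GFP sites were thus listed along the array, and SAUR22 and SAUR23 had the lowest score of the 5 genes.

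BRM-GFP peaks over the array were few and weak. The first BRM-GFP list had a peak within 1000 bp of 1 of the 5 genes, on the body of SAUR20 at chr5:5966718-5967178 with an authors' score of 75.55, in place 10023 of 12230. With 26.5% of genes with a body of at most 1000 bp in that list, 1 of 5 is near the background. A further peak, at chr5:5967982-5968386 with a score of 82.97, reached the neighbouring AT5G18030. No later BRM-GFP list, of ref6 or of WT, had a peak near any of the 5.

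**Figure D2:**
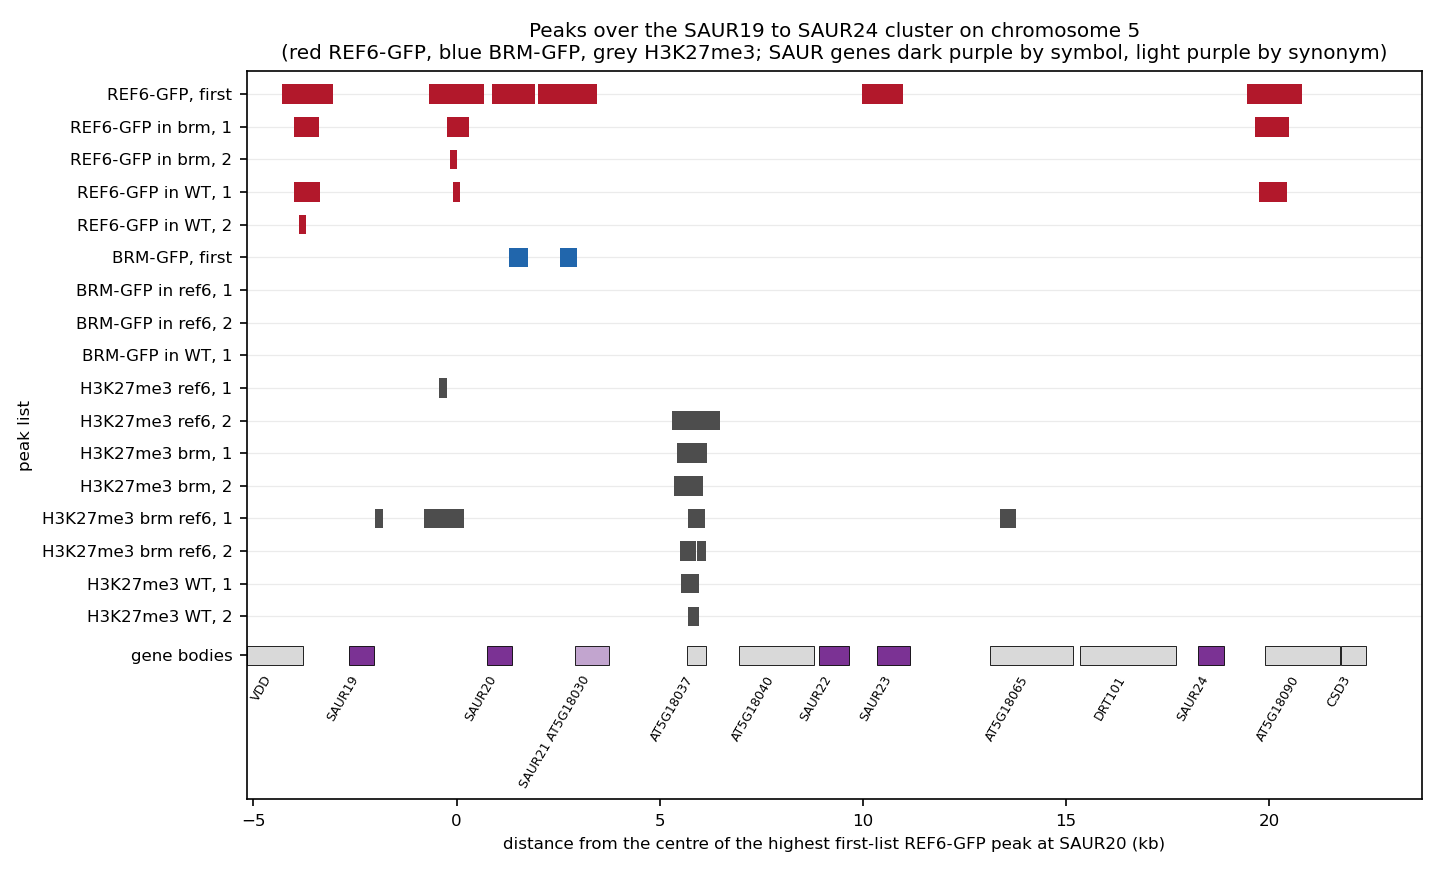
Peaks of the 17 lists over the SAUR19 to SAUR24 array on chromosome 5, drawn to scale as distance (kb) from the centre of the REF6-GFP peak upstream of SAUR20; each row is 1 list and the bottom row shows gene bodies. REF6-GFP peaks recur beside SAUR19, SAUR20 and SAUR24, and H3K27me3 peaks recur over AT5G18037 and not over the SAUR bodies.

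The second array, on chromosome 3, holds SAUR29, SAUR28, SAUR27 and SAUR26 within 7.05 kb, genes linked to growth responses to warmth. SAUR27 and SAUR28 shared the REF6-GFP peak with the highest score among the 16 genes, 902.96 at chr3:980581-982006, in place 1027 of 5413. It overlapped the body of SAUR27 and came within 19 bp of SAUR28. In the later lists the site had a peak with a score of 315.66 in brm replicate 1 and none in brm replicate 2 or in either WT list.

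SAUR29 had its own REF6-GFP peak in the first list, with an authors' score of 501.2 at chr3:975995-977728, which reached into the body of the neighbouring EDA30. It was listed with a score of 80.31 in brm replicate 2, which is the shorter of the brm lists, and with 70.08 in WT replicate 1. SAUR29 thus had its brm peak in replicate 2, while SAUR19, SAUR24, SAUR27 and SAUR28 had theirs in replicate 1. The first BRM-GFP list had a peak with a score of 69.53 inside the REF6-GFP peak.

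SAUR26, at the end of the array, had no GFP peak within 1000 bp. The shared peak of SAUR27 and SAUR28 was 1051 bp away, just outside the distance used. Beyond it, a narrow site at chr3:986237-986382, some 2469 bp from SAUR26, was in 15 of the 17 lists, 8 of 9 GFP lists and 7 of 8 H3K27me3 lists, with authors' scores of 685.31 for REF6-GFP in WT replicate 2 and 122.53 for H3K27me3 in WT replicate 1. The same site was thus listed for all 3 targets. The input samples were not analysed here, and whether the site is occupied by all 3 was not tested.

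**Figure D3:**
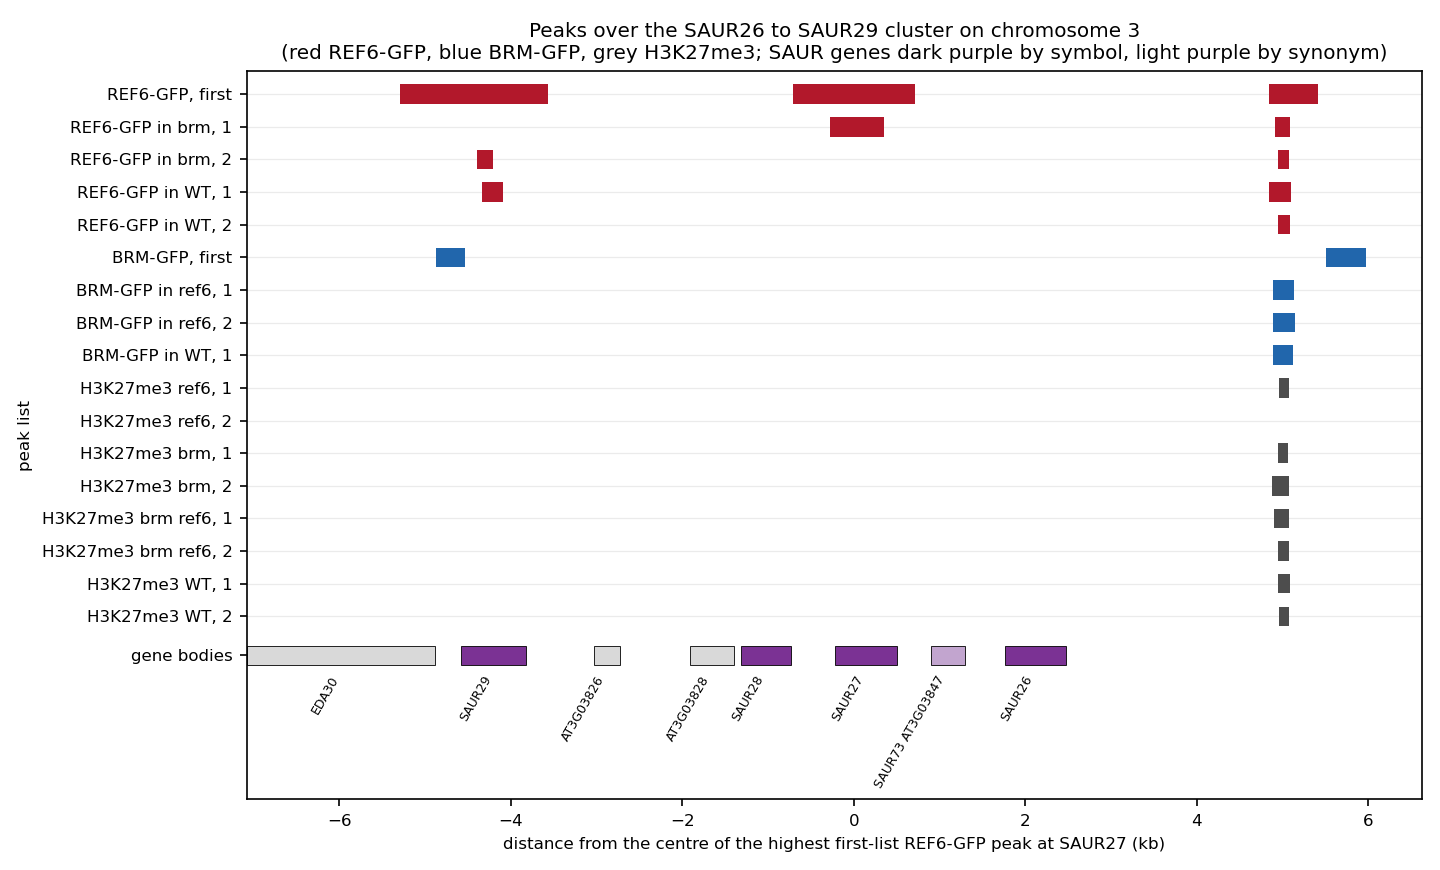
Peaks of the 17 lists over the SAUR26 to SAUR29 array on chromosome 3, as distance (kb) from the centre of the REF6-GFP peak shared by SAUR27 and SAUR28; each row is 1 list and gene bodies are in the bottom row. The site at the right, 2469 bp from SAUR26, appears in 15 of the 17 lists, and no H3K27me3 peak touches a SAUR body.

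Among the genes outside these arrays, SAUR15, an early auxin-responsive gene also known as SAUR-AC1, carried both proteins. Its REF6-GFP peak had an authors' score of 490.68 and lay 330 bp from the body at chr4:18127159-18128928. The first BRM-GFP list had 3 peaks there, with scores of 1008.43, 542.26 and 284.44, and the highest, at chr4:18127345-18129382, was in place 434 of 12230. That peak also came within 1000 bp of SAUR16, and the peak with a score of 542.26 overlapped SAUR14, both known by synonym.

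In the later lists SAUR15 had a REF6-GFP peak within 1000 bp in brm replicate 1, with a score of 168.85. Neither brm replicate 2 nor the WT lists had one within that distance. WT replicate 1 had a peak with a score of 52.38 inside the first-list peak, but 1038 bp from SAUR15. BRM-GFP was listed there with a score of 55.41 in ref6 replicate 2, and neither in ref6 replicate 1 nor in WT. The REF6-GFP and BRM-GFP peaks of the first lists overlapped by 1584 bp, which is 77.7% of the highest BRM-GFP peak.

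AT5G01830, the long gene with the symbol SAUR21, had the next highest BRM-GFP score, 868.78 at chr5:320440-321700, in place 602 of 12230. The REF6-GFP peak lay inside it with an authors' score of 75.73, and 986 bp were shared. BRM-GFP was listed on this gene with a score of 64.97 in ref6 replicate 1, and neither in ref6 replicate 2 nor in WT. SAUR36 had 2 BRM-GFP peaks over its body, with scores of 530.14 and 231.05, and no other GFP peak. SAUR68 had a REF6-GFP peak with a score of 78.83 on its body and another with 57.72 on the neighbouring SAUR66.

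At each of the 4 genes with peaks in both first lists, the REF6-GFP and BRM-GFP peaks overlapped. The share with such an overlap among all protein-coding genes with both peaks was not computed. The overlap is therefore not read as particular to the SAUR genes. The BRM-GFP peak lay wholly inside a REF6-GFP peak at SAUR29, over 346 bp, and at SAUR20, over 461 bp. REF6-GFP scores were the higher at SAUR29 and SAUR20 and BRM-GFP scores at SAUR15 and AT5G01830, but the lists have different lengths and their scores are not on a common footing.

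**Figure D4:**
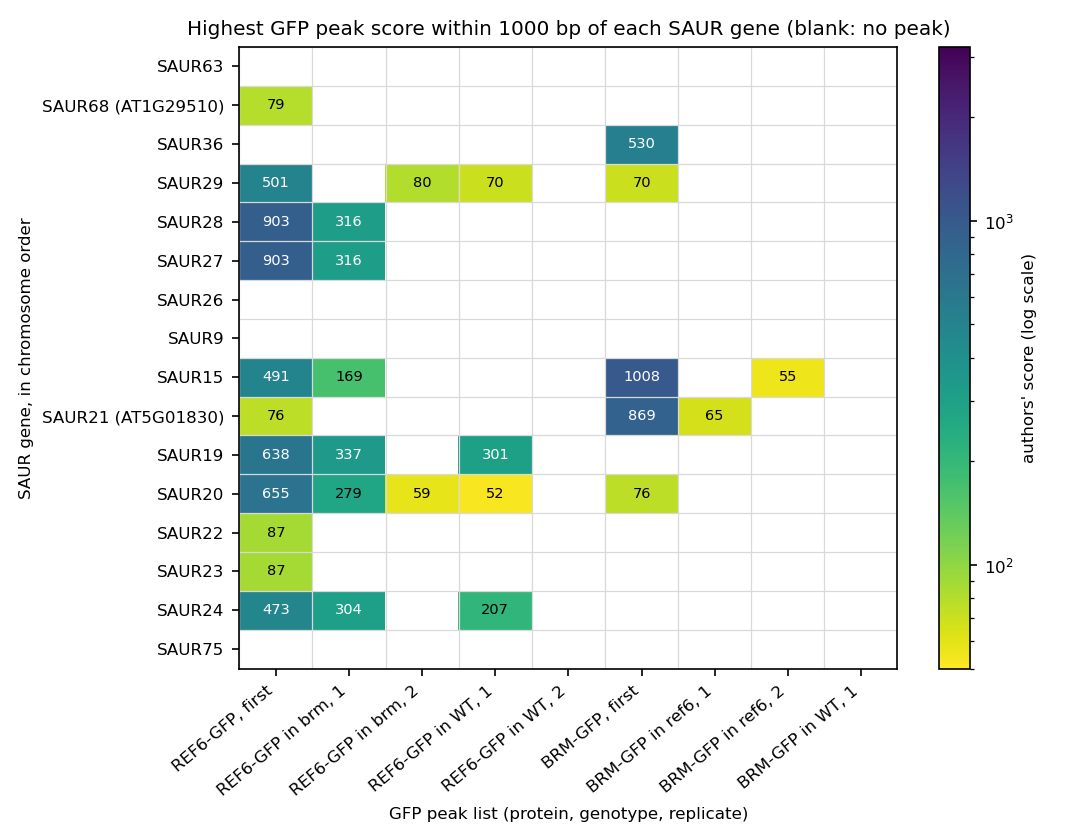
Authors' score of the highest GFP peak within 1000 bp of each of the 16 SAUR genes (rows) in each of the 9 GFP lists (columns); empty cells had no peak. Scores reach 902.96 for REF6-GFP at SAUR27 and SAUR28 and 1008.43 for BRM-GFP at SAUR15, and 4 genes have no entry in any list.

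The later REF6-GFP lists address whether REF6 occupancy differs when BRM is lost. Peaks lay near 6 of the 16 genes in brm replicate 1 (background 14.8%) and 2 in brm replicate 2 (8.14%), against 4 in WT replicate 1 (11.9%) and 0 in WT replicate 2 (8.84%). Among genes with a body of at most 1000 bp the 4 backgrounds were 9.93% and 5.25% in brm, and 8.06% and 5.55% in WT. The 6 in brm replicate 1 were SAUR15, SAUR19, SAUR20, SAUR24, SAUR27 and SAUR28, and the 2 in brm replicate 2 were SAUR20 and SAUR29. WT replicate 1 had SAUR19, SAUR20, SAUR24 and SAUR29. Within each genotype replicate 1 had more than replicate 2, and brm replicate 2 was below WT replicate 1, so the genotypes overlapped.

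A peak in both brm lists and neither WT list, the condition for a gain, was found at 0 of the 16 genes (background 0.317%), and the reverse, a loss, at 0 (background 0.0984%). SAUR20 was the gene with a peak in both brm lists, and WT replicate 1 had it too. Without brm replicate 2 the gains would be 3, SAUR15, SAUR27 and SAUR28, and without WT replicate 1 there would be 1, SAUR20, so single libraries decide these counts. The gain at SAUR15 would also rest on the 1000 bp bound, since WT replicate 1 had a peak 1038 bp from it. With 2 libraries against 2 the smallest p an exact permutation test can give is 0.333, and none was computed. In all, 7 of the 16 had a REF6-GFP peak in at least 1 later list, against 17.9% of all protein-coding genes, and 0 had one in all 5 REF6-GFP lists, against 4.91%.

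The later BRM-GFP lists ask the converse, BRM occupancy without REF6. They had a peak near 1 of the 16 genes in ref6 replicate 1 (AT5G01830; background 5.79%), 1 in ref6 replicate 2 (SAUR15; 6.3%) and 0 in WT (5.43%). Gains, with a peak in both ref6 lists and not in WT, were 0 of 16 (background 1.22%), and losses were 0 of 16 (background 2.23%). The WT side is 1 library without a replicate check, and with either ref6 library left out the gain count is 1. Over these 3 lists 2 of the 16 genes had any peak, against 11.0% of all protein-coding genes, and 0 had one in all 4 BRM-GFP lists, against 1.78%.

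H3K27me3 was listed on the body of 1 of the 16 genes. The other 15 had no H3K27me3 peak overlapping the body by a single base pair in any of the 8 lists, a share of 93.8%, against 73.1% of all protein-coding genes and 65.0% of those with a body of at most 1000 bp. Of the SAUR genes known by synonym, 37 of 64 had none (57.8%). Of the 11 genes with a first-list REF6-GFP peak, 10 (90.9%) had no H3K27me3 peak within 1000 bp in either ref6 list, against 70.8% of all protein-coding genes with such a REF6-GFP peak and 64.5% of those with a body of at most 1000 bp.

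SAUR9, whose product is among the SAUR proteins that bind and inhibit PP2C.D phosphatases, was the exception. H3K27me3 covered 0.0% of its body in ref6 replicate 1 and 75.4% in replicate 2, 69.9% and 40.2% in the brm libraries, 67.6% and 45.4% in the brm ref6 libraries, and 46.0% and 55.5% in the WT libraries. The libraries of each mutant differed from each other by more than the WT libraries did. Mean coverage was 37.7% ± 53.3 for ref6, 55.1% ± 21.0 for brm and 56.5% ± 15.6 for the double mutant, against 50.7% ± 6.77 for WT (SD, n = 2 each), and the values of each mutant overlapped those of WT.

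The H3K27me3 peak on SAUR9 in brm replicate 1, at chr4:17089821-17090590, had an authors' score of 420.58, in place 4006 of 11860. In ref6 replicate 2 it had 60.94, in place 5151 of 5582, and in WT replicate 1 it had 152.13, in place 5516 of 11132. SAUR9 had no GFP peak within 1000 bp in any list, and its nearest first-list REF6-GFP peak was 8876 bp away.

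A gene counted as marked from an H3K27me3 coverage of 50% of its body, gained where it was marked in both libraries of the mutant and in neither of the genotype it is set against, and lost in the reverse case. SAUR9 was marked in 1 library of each genotype, and so was called in no comparison. The other 15 genes were marked in none. The marked genes of the 16 were thus 0 in ref6 replicate 1 (background 7.56%) and 1 in replicate 2 (15.0%), 1 (14.1%) and 0 (12.1%) in the brm libraries, 1 (13.7%) and 0 (9.61%) in the brm ref6 libraries, and 0 (10.6%) and 1 (9.5%) in the WT libraries. Marked in all 8 lists were 0 of 16, against 5.41%. Against WT, 0 of the 16 genes gained the mark in ref6 (background 1.3%) and 0 lost it (0.375%). The brm libraries gave 0 gains (1.44%) and 0 losses (0.051%), and those of brm ref6 gave 0 gains (1.81%) and 0 losses (0.627%).

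The double mutant gave the same counts against the single mutants. In brm ref6 against ref6, 0 gained (0.171%) and 0 lost (0.0729%), and in brm ref6 against brm, 0 gained (1.26%) and 0 lost (1.61%). All these backgrounds correspond to less than 1 gene of 16, so nothing is read from the zeros about the SAUR genes.

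**Figure D5:**
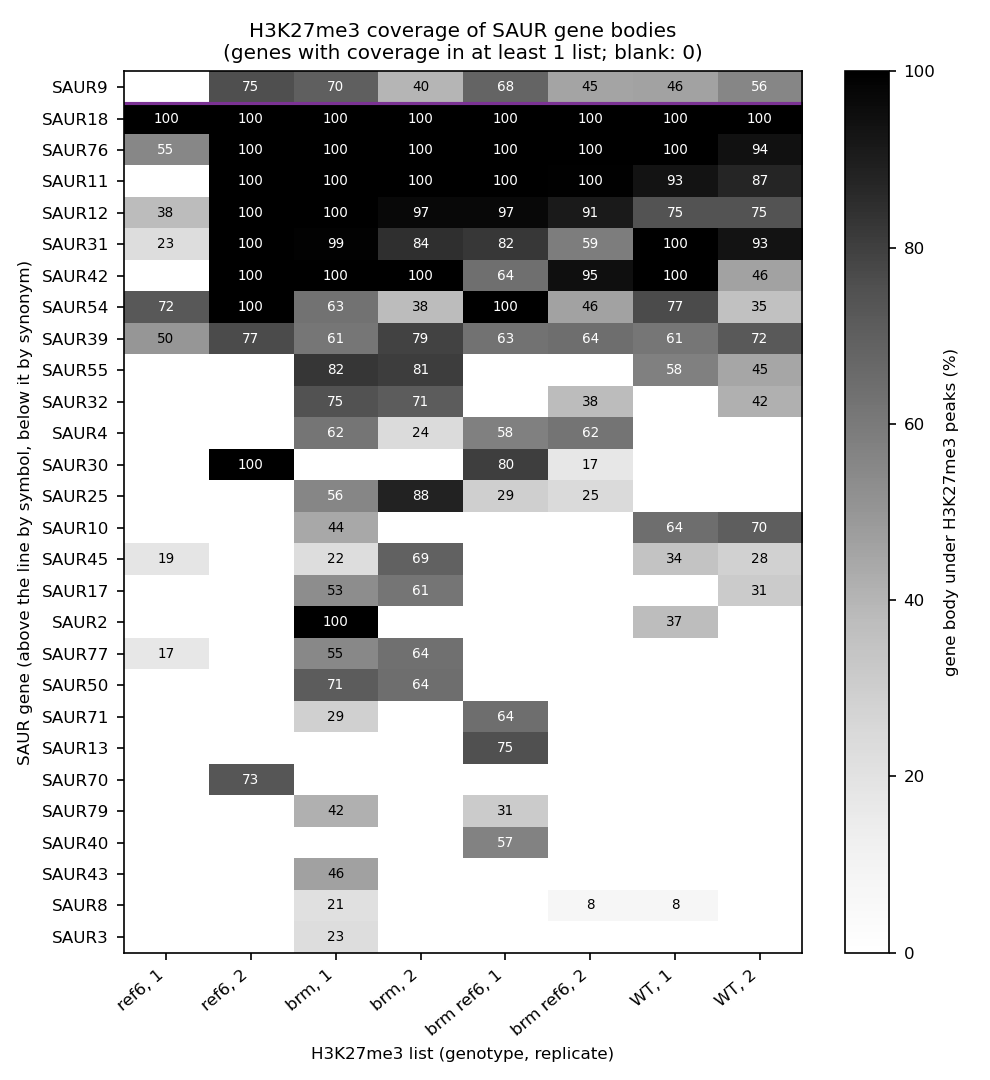
H3K27me3 coverage of the gene body (%) in each of the 8 libraries, for SAUR9, the gene of the 16 with any coverage, above the line, and for the 27 SAUR genes by synonym with coverage in at least 1 list below it; blank cells are 0. SAUR9 lies between 0.0% and 75.4%, with the ref6 libraries at both ends of that range.

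Around the genes the mark was also sparse. An H3K27me3 peak within 1000 bp was found at 1 of 16 in ref6 replicate 1 (background 23.8%), ref6 replicate 2 (27.4%), brm replicate 1 (30.3%), brm replicate 2 (28.5%), brm ref6 replicate 2 (26.5%), WT replicate 1 (25.1%) and WT replicate 2 (24.2%), and at 3 in brm ref6 replicate 1 (30.6%). The median distance from a gene to the nearest H3K27me3 peak ran from 4280 bp in brm ref6 replicate 1 to 17313 bp in ref6 replicate 2, and it was 5815 and 6052 bp in the WT libraries.

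The genes reached in ref6 replicate 1 and brm ref6 replicate 1 included SAUR20. H3K27me3 covered 16.2% of the REF6-GFP peak upstream of SAUR20 in ref6 replicate 1, through a peak at chr5:5964987-5965202 with an authors' score of 86.9, and 64.0% in brm ref6 replicate 1, through a peak at chr5:5964620-5965615 with a score of 454.42. The other 6 lists, replicate 2 of both genotypes and all brm and WT libraries, covered none of it. In brm ref6 replicate 1 a small peak with a score of 75.75 also came within 8 bp of SAUR19. The replicates of both mutants thus differed. Gains were called on gene bodies, and no call was made at this upstream site.

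Over the 12 first-list REF6-GFP peaks near the 16 genes, an H3K27me3 peak was found at 1 in ref6 replicate 1 (background 15.6% of all 5413 REF6-GFP peaks) and 0 in ref6 replicate 2 (17.6%), at 0 in both brm lists (6.34% and 5.3%), at 1 in brm ref6 replicate 1 (20.7%) and 0 in brm ref6 replicate 2 (16.6%), and at 0 in the WT lists (4.23% and 3.88%). In both cases the peak was the one upstream of SAUR20. Inside the chromosome 5 array H3K27me3 was listed on AT5G18037, which lies between AT5G18030 and SAUR22, in ref6 replicate 2 and in all brm, brm ref6 and WT libraries, while the SAUR bodies on either side had none.

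Counting neighbours strictly, as SAUR genes by symbol with no other protein-coding gene between them, gave 3 clusters with 6 genes. They were SAUR28 with SAUR27, SAUR19 with SAUR20 and SAUR22 with SAUR23. All 6 genes had a first-list REF6-GFP peak, but SAUR28 and SAUR27 shared 1 best peak, as did SAUR22 and SAUR23. Over the whole family of 80, clusters of genes within 10000 bp of each other held 37 genes, and 43 stood singly. A first-list REF6-GFP peak lay near 22 (59.5%) of the clustered and 12 (27.9%) of the single genes. The backgrounds were 30.1% of all protein-coding genes and 20.2% of those with a body of at most 1000 bp. For first-list BRM-GFP the shares were 40.5% in clusters and 39.5% singly, against 44.1% and 26.5%. At least 1 H3K27me3 list marked 18.9% of the clustered and 39.5% of the single genes, against 18.6% of all protein-coding genes and 29.6% of those with a body of at most 1000 bp. Neighbours share peaks and regions, so these shares are a description, with no test.

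The 64 genes known by synonym are given beside the 16 as a description, and no difference between them was tested. First-list REF6-GFP peaks lay near 23 (35.9%), against 30.1% of all protein-coding genes and 20.2% of those with a body of at most 1000 bp. First-list BRM-GFP peaks lay near 27 (42.2%), against 44.1% and 26.5%. The median body of the 64 was 848 bp. The highest REF6-GFP scores of the family were found here, 2474.22 at a peak shared by SAUR13 and SAUR14, 2423.42 at SAUR59 and 2356.06 at a peak shared by SAUR6 and SAUR12. SAUR6, SAUR13, SAUR41, SAUR48 and SAUR59 had a REF6-GFP peak in all 5 lists, which is 7.81% of the 64 against 4.91% of all protein-coding genes. SAUR50 and SAUR59 had a BRM-GFP peak in all 4, 3.12% against 1.78%. BRM-GFP was called as lost in ref6 against WT at SAUR32 and SAUR51, 3.12% of the 64 against 2.23% of all protein-coding genes. Their scores in the single WT library were 53.62 and 101.92.

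Among the 64, H3K27me3 was called as gained in brm against WT at 5 (7.81%, against 1.44% of all protein-coding genes and 2.49% of those with a body of at most 1000 bp). SAUR50, which takes part in cotyledon opening, was covered over 70.8% and 64.3% of its body in the brm libraries, and over 0.0% in all ref6, brm ref6 and WT libraries. The other 4 were SAUR17, SAUR25, SAUR32 (a gene of apical hook development) and SAUR77. WT replicate 2 already covered 31.2% of SAUR17 and 41.6% of SAUR32. At 80% of the body none of these 5 calls was left, and with scores of at least 100 those of SAUR17, SAUR25 and SAUR77 were. With any overlap as the bound the calls of SAUR17 and SAUR32 ended, and with lists of equal length that of SAUR50 ended. The same 5 and SAUR55 were lost in brm ref6 against brm (9.38%, against 1.61% of all protein-coding genes and 2.83% of short ones). The brm ref6 libraries still covered 29.1% and 24.6% of SAUR25, and replicate 2 covered 37.5% of SAUR32. At 80% of the body only the loss of SAUR55 was left. With scores of at least 100 the losses of SAUR32 and SAUR50 ended, and with any overlap those of SAUR25 and SAUR32. All of these losses were left with lists of equal length. Both comparisons, brm against WT and brm ref6 against brm, use the same brm libraries and are not independent. SAUR10 was covered over 64.1% and 70.0% in the WT libraries and was lost in all 3 mutants, which share those WT libraries. However, brm replicate 1 still covered 43.8% of SAUR10. Each of these calls is 1.56% of the 64. Losses against WT were called at 0.375% of all protein-coding genes for ref6, 0.051% for brm and 0.627% for the double mutant. Among genes with a body of at most 1000 bp the shares were 1.07% for ref6, 0.137% for brm and 1.14% for the double mutant. The calls for ref6 and the double mutant were thus near the share of short genes. These SAUR10 calls ended at 80% of the body, at scores of at least 100 and with lists of equal length, and in brm also with any overlap as the bound. SAUR4 was gained in brm ref6, over 57.5% and 62.1%, against 0.0% in both WT libraries. That is 1.56% of the 64, against 1.81% of all protein-coding genes. The brm libraries covered 61.6% and 23.7% of SAUR4, so the mark was not confined to brm ref6. SAUR4 was also called as gained in brm ref6 against ref6 (1.56%, against 0.171%). Both calls ended at 80% of the body and at scores of at least 100, and the one against ref6 also with lists of equal length. SAUR18 and SAUR76 were marked in all 8 lists, 3.12% of the 64. That share was below the 5.41% of all protein-coding genes and the 8.9% of those with a body of at most 1000 bp. SAUR13, with REF6-GFP in every list, had 75.3% of its body under H3K27me3 in brm ref6 replicate 1 and 0.0% in replicate 2 and in the other libraries.

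Other genes of the auxin growth pathway were looked at in the same lists. Of 29 genes chosen for their roles, 28 had a first-list BRM-GFP peak (96.6%, against 44.1% of all protein-coding genes and 47.5% of those with a body over 1000 bp), and 12 had a first-list REF6-GFP peak (41.4%, against 30.1% and 32.0%). BRM-GFP was listed at all 4 receptors, 4 of 5 Aux/IAA genes, all 4 ARF genes, all 9 PP2C.D phosphatase genes, both proton pump genes and all 5 growth regulators.

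Within that list REF6-GFP reached 2 receptors, 1 Aux/IAA, 2 ARF genes, 2 phosphatases, 1 pump and 4 regulators. PP2C.D9 had a REF6-GFP peak in every list, with authors' scores of 2983.6 in the first, 923.43 and 129.84 in brm, and 638.94 and 152.8 in WT. AFB1, an auxin receptor gene, had REF6-GFP peaks of 58.89 and 59.43 in the brm lists and none in the WT lists. AFB2, another receptor gene, had BRM-GFP peaks of 112.5 and 93.95 in the ref6 lists and none in WT. ARF19, which encodes an activating ARF, had none in the ref6 lists and 67.12 in WT. The first lists, whose labels name no genetic background, had a REF6-GFP peak of 396.94 at AFB1. They also had BRM-GFP peaks of 1102.24 at AFB2 and 404.4 at ARF19. The WT BRM-GFP list was the shortest of the GFP lists, with 1466 peaks. Each of these 3 genes was the 1 call of its kind among the 29 (3.45%). The shares of all protein-coding genes were 0.317% for REF6-GFP gains, 1.22% for BRM-GFP gains and 2.23% for BRM-GFP losses. H3K27me3 touched 4 of the 29, all Aux/IAA genes, and 25 (86.2%) had none, against 73.1% of all protein-coding genes. Of the 4, IAA7 was lost in brm ref6 against brm, 1 of 29 (3.45%) against 1.61% of all protein-coding genes. It had 30.5% and 29.9% covered in brm ref6 and 53.3% and 51.1% in brm, just above the bound of 50%. The WT libraries covered 51.1% and 49.8% of it.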

How the data were processed

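Peak lists of 17 libraries from 14-day-old seedlings were used. Alignment to TAIR10 with Bowtie2 2.2.5 and peak calling with MACS 1.4 are named in the submitters' processing notes. The control and the options of each call are unknown here. The value deposited by the authors is a score for each peak, −10 times the base-10 logarithm of its p-value, with a minimum of 50. Read depth is unknown. Gene bodies came from the RefSeq table of TAIR10.1, which carries no strand, so both sides of a gene were searched. As a check of position, 84.2% of first-list REF6-GFP peak centres lay on protein-coding bodies without a shift and 64.5% at a shift of 1000 bp. Printed coordinates are the peaks' own and 1-based.

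A gene counted as occupied with at least 1 bp of a peak on its body or in the 1000 bp beside it. Coverage of the body by H3K27me3 was the measure of marking, with 50% as the bound. Calls are thresholds in both libraries, without p-values. Shares over all 27444 protein-coding genes, and over the 4381 with a body of at most 1000 bp, are the background. The call of an H3K27me3 gain was tried on copies of the WT lists with peaks planted over whole gene bodies. Calls of losses and of GFP changes were not tried in that way. Python 3.11.15, numpy 2.4.6 and pandas 2.3.3 were used.

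The 16 genes, the auxin list and the thresholds were chosen with earlier results of these data known. The 64 genes by synonym were added after the table was seen. Named genes are those called in any comparison, marked in all 8 lists, occupied in the first lists (with the highest scores), occupied in all lists of a protein, or in a cluster. The 4 unoccupied genes, VDD, EDA30, AT5G18037 and AT5G18090 were named after their values were seen. Alternatives changed the bound, window, score, list length, replicate block and libraries. A planned description of promoter motifs and protein identity was not run, for want of sequence.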

Additional observations from a re-analysis of the deposited data

How the results depend on the processing

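All 10 counts of H3K27me3 gains and losses among the 16 genes were 0 in each alternative run (any overlap, 80% of the body, scores of at least 100, lists of equal length, without AT5G01830, and leaving out each library, range 0 to 0). Replicate numbers are not stated to pair libraries, and same-numbered differences correlated at −0.484 (brm ref6 and ref6) to 0.377 (REF6-GFP in brm and WT). With the replicate number as a block the counts were also 0 gains and 0 losses, because the call already asks for both libraries. With crossed numbers in the comparisons with ref6, at −0.211 against WT, they were 0 too. REF6-GFP gains in brm were 0, but 1 with lists of equal length, and 0 to 3 on leaving out a library; REF6-GFP losses were 0 to 0. BRM-GFP gains in ref6 were 0, and 1 to 1 on leaving out a ref6 library, and losses 0 to 0; leaving out the single WT library gives no value. Counts of occupied genes moved more. On the gene body alone they were 6 of 16 in the first REF6-GFP list, 1 in each of brm replicate 1, brm replicate 2 and WT replicate 1, and 0 for BRM-GFP in ref6 replicate 2. Within 3000 bp they were 6 in brm replicate 2, 7 in WT replicate 1 and 3 in WT replicate 2 for REF6-GFP, and 2 in each ref6 list and 1 in WT for BRM-GFP. With scores of at least 100 they were 7 in the first REF6-GFP list, 0 in brm replicate 2 and 2 in WT replicate 1, and for BRM-GFP 3 in the first list and 0 in both ref6 lists. With lists of equal length they were 4 in the first REF6-GFP list, 1 in brm replicate 2 and 2 in WT replicate 1, and for BRM-GFP 3 in the first list and 0 in both ref6 lists. With at least 50% of the peak inside they were 3 in brm replicate 1 and 2 in WT replicate 1 for REF6-GFP, and 0 for BRM-GFP in ref6 replicate 2. Without AT5G01830, an alternative chosen after the data were seen, BRM-GFP in ref6 replicate 1 had 0. The stricter alternatives use fewer peaks or a narrower window by construction. Calls among the 64 synonym genes moved in 43 of their settings, for example gains in brm against WT, 5 with 50% of the body and 2 other genes, SAUR12 and SAUR55, with 80%. Depth, the handling of repeated sequence and the genetic background of the first lists limit all of these counts.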
